A study of Mus musculus with 37 samples.

Results

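The 10 genes that encode the vascular endothelial growth factors, the angiopoietins and their receptor tyrosine kinases were followed through every library of the series. They were chosen by family: the 6 ligand genes Vegfa, Vegfb, Vegfc, Vegfd, Angpt1 and Angpt2, and the 4 receptor genes Kdr, Flt1, Flt4 and Tek. They are 10 of 31053 genes in the single-cell tables, of 30892 genes in the cardiac fibroblast (CF) table and of 20158 genes in the neonatal rat ventricular myocyte (NRVM) table. All 10 were listed in each table, and all 10 passed the filter on low counts in both bulk tables.

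The single-cell data came from heart nonmyocytes of C57BL/6 mice 7 days after myocardial infarction, 1 library from control animals labelled as wild type and 1 from ENPP1CKO animals, in which tamoxifen given around the injury activated a Col1a2CreERT driver against floxed ENPP1 alleles. The driver acts in Col1a2-expressing cells, and the number of hearts behind each library was not given in the sources used here. The bulk data tested how medium acts on cells in culture. NRVMs were treated with Vehicle, the ectonucleotidase ENPP1, its substrate ATP, ENPP1+ATP or AMP, a product of ATP hydrolysis, and the medium they conditioned (MCndM) was put on an immortalized wild type C57BL/6 mouse CF line for 24 h or 48 h (n = 2 per group, 20 libraries) or on Sprague-Dawley NRVMs for 24 h (n = 3 per group, 15 libraries). The NRVM libraries carry a mouse organism label beside the rat strain. Vehicle MCndM was the control in both cell systems. The study's methods describe its replicates in general as biological, and neither they nor the labels say how these libraries were separated, so the p-values measure the spread between these samples.

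VEGF-A, the main angiogenic ligand, binds the receptors encoded by Kdr, which carries most of its mitogenic signal in endothelium, and by Flt1, which binds it more tightly and can act as a decoy. VEGF-B binds the Flt1 product and not that of Kdr, whereas VEGF-C and VEGF-D act on the receptor encoded by Flt4 and drive the growth of lymphatic vessels. Angiopoietin-1, made largely by perivascular and mesenchymal cells, activates the endothelial receptor encoded by Tek (TIE2) and stabilises vessels, while angiopoietin-2 is released by endothelium and can oppose it. After infarction, new blood vessels and lymphatics grow into the injured wall beside macrophages and scar-forming fibroblasts, and these ligands and receptors take part in that growth.

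In the mouse genome (GRCm38, GENCODE M21) the ligand genes lie at chr17:46016993-46032369 on the minus strand (Vegfa), chr19:6982473-6987651 on the minus strand (Vegfb), chr8:54077606-54187096 on the plus strand (Vegfc), chrX:164373378-164402650 on the plus strand (Vegfd), chr15:42424723-42676977 on the minus strand (Angpt1) and chr8:18690263-18741562 on the minus strand (Angpt2). The receptor genes lie at chr5:75932827-75978458 on the minus strand (Kdr), chr5:147561604-147726011 on the minus strand (Flt1), chr11:49609263-49652739 on the plus strand (Flt4) and chr4:94739289-94874976 on the plus strand (Tek). Angpt1 shares 737 exon bases with the antisense gene Gm17473, and the strand setting of the counting was not given in the sources used here, so reads of those bases cannot be assigned to 1 of the 2 genes. Angpt2 lies within Mcph1 on the opposite strand and shares 0 exon bases with it.

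Promoter windows (250 bases before to 50 after the start, RefSeq, GRCm38.p6) were found for 8 of the 10 genes, Angpt1 and Angpt2 being the others. The windows of 3 ligands and 1 receptor whose mRNA moved in the CFs are shown, Vegfa at chr17:46032328-46032627 on the minus strand, Vegfc at chr8:54077282-54077581 on the plus strand, Vegfd at chrX:164373272-164373571 on the plus strand and Flt4 at chr11:49609429-49609728 on the plus strand, 5′ to 3′ on the gene's strand, with GC boxes (GGGCGG or its reverse complement CCGCCC) and TATA boxes (TATAAA) in capitals. GC boxes are the letters bound by SP1, and a TATA box positions the polymerase at many tightly regulated starts.
Vegfa: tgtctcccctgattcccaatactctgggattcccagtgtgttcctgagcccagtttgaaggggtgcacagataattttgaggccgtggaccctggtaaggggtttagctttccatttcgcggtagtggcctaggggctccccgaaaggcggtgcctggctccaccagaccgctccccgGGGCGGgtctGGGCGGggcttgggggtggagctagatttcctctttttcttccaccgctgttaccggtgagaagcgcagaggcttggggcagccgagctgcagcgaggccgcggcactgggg
Vegfc: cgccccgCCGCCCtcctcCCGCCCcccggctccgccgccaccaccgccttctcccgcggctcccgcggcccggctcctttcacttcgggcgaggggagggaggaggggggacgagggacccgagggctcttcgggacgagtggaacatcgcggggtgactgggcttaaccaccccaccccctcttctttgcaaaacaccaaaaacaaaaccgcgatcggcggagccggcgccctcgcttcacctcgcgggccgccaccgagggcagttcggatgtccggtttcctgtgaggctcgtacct
Vegfd: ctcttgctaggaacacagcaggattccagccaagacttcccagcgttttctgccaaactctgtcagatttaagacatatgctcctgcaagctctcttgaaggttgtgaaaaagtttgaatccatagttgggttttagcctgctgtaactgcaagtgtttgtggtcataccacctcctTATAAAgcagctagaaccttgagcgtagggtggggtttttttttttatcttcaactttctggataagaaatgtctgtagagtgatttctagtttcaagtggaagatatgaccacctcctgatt
Flt4: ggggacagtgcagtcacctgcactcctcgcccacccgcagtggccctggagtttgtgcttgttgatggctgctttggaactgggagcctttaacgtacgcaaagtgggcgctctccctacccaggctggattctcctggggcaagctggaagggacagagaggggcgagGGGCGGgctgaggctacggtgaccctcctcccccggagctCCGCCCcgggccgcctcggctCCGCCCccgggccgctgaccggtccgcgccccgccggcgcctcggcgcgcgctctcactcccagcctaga
The Vegfa window held 2 GC boxes, the Vegfc window 2 and the Flt4 window 3, and their GC content was 62.0%, 70.3% and 70.3%. The Vegfd window was of another kind, with a GC content of 42.0%, 1 TATA box and no GC box. For Vegfa, Vegfc, Vegfd and Flt4 the RefSeq start behind the window was not the GENCODE gene start given above. The Vegfa window still held its gene start. The Vegfc window ended before the Vegfc gene start, and the Flt4 window lay wholly inside the gene. In the Vegfd window the TATA box lay past the gene start, inside the gene as given above. Over all 32851 windows of the same length the median GC content was 52.7%, GGGCGG was found on either strand in 35.7% and TATAAA in 13.6%. The core letters of hypoxia-inducible factor sites, ACGTG and GCGTG, were searched on both strands as well. At least 1 of them occurred in 43.8% of all windows and in 3 of the 8 member windows (Vegfb, Kdr and Flt1), none of them among the 4 shown, and the second Vegfa start in the table, at chr17:46025114-46025413, held both. These matches describe letters in a window and not binding.

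Depth differed between the experiments. The ENPP1CKO and control libraries held 28039559 and 22746607 unique molecular identifiers (UMIs), and 7256 and 5236 cells were kept, with medians of 3365.5 and 3701 UMIs per cell, while 68 barcodes occurred in both. Total counts ran from 32184799 to 115824659 in the CF libraries and from 13481389 to 16977980 in the NRVM libraries. Enpp1, the targeted gene, had 474 UMIs in ENPP1CKO and 1347 UMIs in control fibroblast-like cells, or 28.7 and 130 CPM. CPM is used throughout for counts scaled to a common total. In single cells that total is the UMIs of the class or cluster in 1 library, and in bulk the TMM-scaled library size. Across bulk comparisons the median log2 fold change of all genes stayed between -0.03 and 0.01. In the CFs the fibroblast markers Col1a1, Col1a2, Col3a1, Pdgfra, Dcn, Lum, Postn and Tcf21 summed to 6857 to 7200 CPM in the 24 h Vehicle libraries, and the endothelial markers Pecam1 (at most 0.857 CPM), Cdh5 (at most 0.209 CPM), Emcn (at most 0.0552 CPM) and Cldn5 (at most 0.0979 CPM) were near 0 in all 20, while Egfl7 (2.00 to 4.77 CPM) and Ecscr (1.22 to 3.32 CPM) were low and the 8 endothelial markers summed to 4.73 to 8.21 CPM.

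In the infarcted heart the 10 genes divided by cell class into makers and receivers (11 classes were named from markers, with the 10 genes left out of the clustering). Macrophage-like cells held 71.0% of all Vegfa UMIs in the ENPP1CKO library against 77.0% in the other. Fibroblast-like cells held 97.9% and 92.5% of Vegfd, 99.0% and 94.4% of Angpt1, 84.4% and 75.0% of Vegfc, and 75.1% and 70.1% of Angpt2. Endothelial-like cells held 86.4% and 58.3% of Kdr and 90.2% and 83.2% of Flt1. Flt4 had few UMIs (114 and 56), of which lymphatic endothelial-like cells held 50.9% and 60.7% and endothelial-like cells 42.1% and 12.5%. Tek broke the pattern, because fibroblast-like cells (3720 and 1858 cells) carried 66.9% and 77.6% of its UMIs even though its CPM was higher in both endothelial classes. With 1 library per genotype no test of genotype was possible. The intervals below cover counting error only and say nothing of the spread between hearts.

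**Figure D1:**
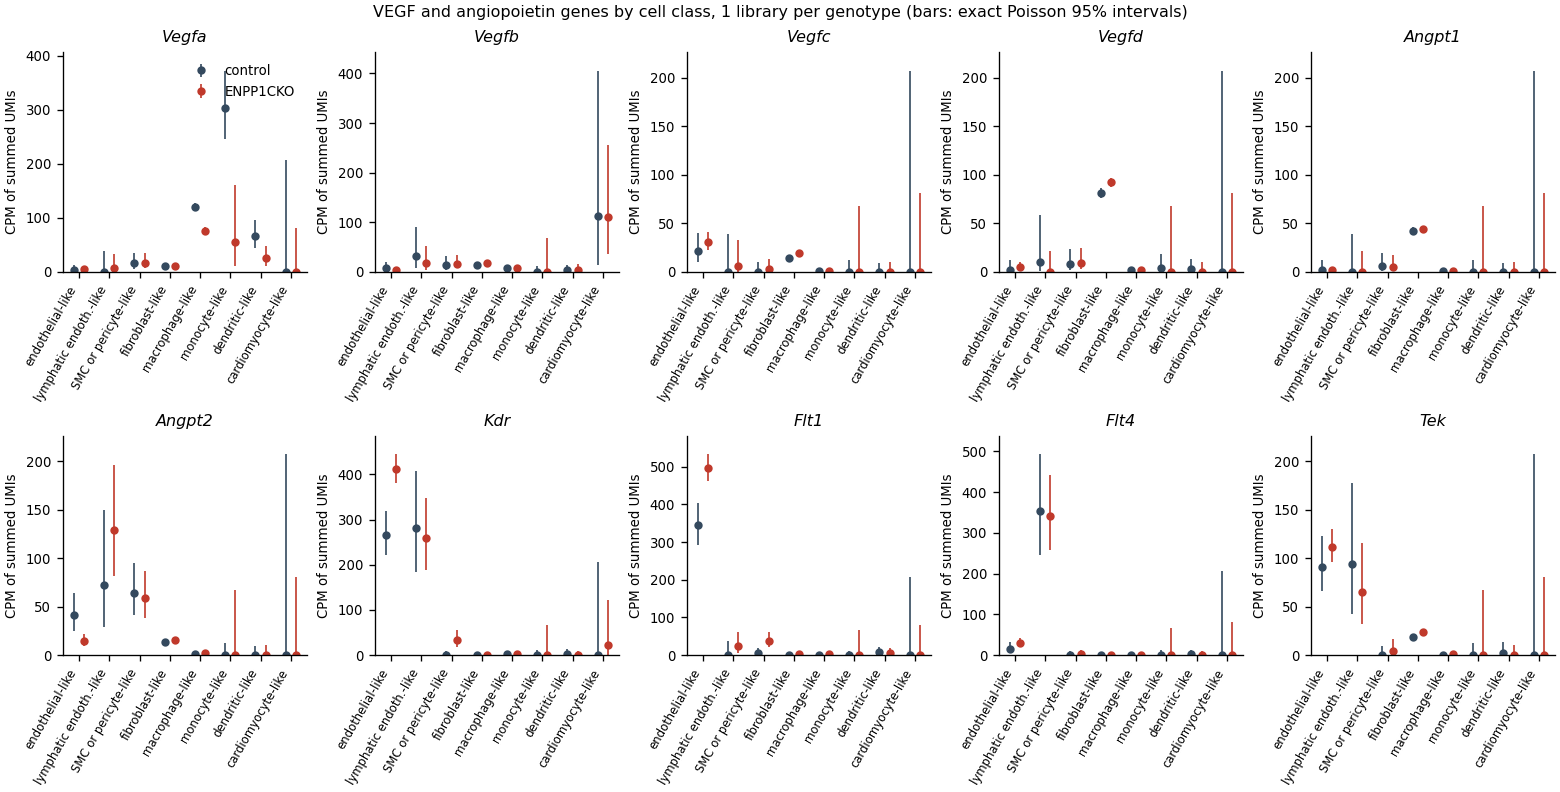
Level of each of the 10 genes (summed UMIs, CPM, with exact Poisson 95% intervals as bars) in 8 cell classes of the control and ENPP1CKO single-cell libraries. Kdr reached 412 CPM in ENPP1CKO and 267 CPM in control endothelial-like cells, and Vegfd 92.1 and 81.0 CPM in fibroblast-like cells.

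Vegfa mRNA in macrophages was lower in the ENPP1CKO library. It was at 75.5 CPM (538 UMIs) against 119 CPM (1008 UMIs) in control macrophage-like cells, a log2 ratio of -0.66 (95% interval -0.81 to -0.50) and, with cells thinned to 1000 UMIs, of -1.17 (-1.48 to -0.87). Cells with at least 1 Vegfa UMI made up 17.3% and 26.5% of the class, and after the thinning 5.78% and 11.5%, against 4.38% and 5.76% of fibroblast-like cells before thinning. The difference rested on 1 cluster. Cluster 11, with Ccl24 and Slpi among its leading genes, numbered 814 cells in the control and 55 cells in the ENPP1CKO library, and Vegfa was at 280 CPM in the former and 69.7 CPM (10 UMIs) in the latter. Without that cluster the macrophage ratio was -0.06 on the log2 scale (-0.23 to 0.12). In cluster 7, led by Cd74, H2-Eb1 and Il1b, the levels were 82.1 and 83.9 CPM, and in cluster 8, led by Gpnmb and Ccl8, 72.6 and 78.5 CPM. In these 2 clusters, which held most macrophage-like cells of either library, a Vegfa difference was not detectable at this depth. Monocyte-like cells, the precursors of many wound macrophages, were at 54.7 CPM (3 UMIs) in ENPP1CKO and 304 CPM (92 UMIs) in control hearts, a ratio of 0.180 (0.0364 to 0.543). Dendritic-like cells were at 24.6 CPM (9 UMIs) and 65.7 CPM (27 UMIs).

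Vegfd and Angpt1 were both highest in fibroblast cluster 4. Vegfd, the lymphangiogenic ligand, was at 92.1 CPM (1519 UMIs) in ENPP1CKO and 81.0 CPM (841 UMIs) in control fibroblast-like cells, and 19.6% and 21.4% of these cells had a UMI of it against 0.633% and 0.487% of macrophage-like cells. Its level spanned a wide range within the class. Cluster 4, led by Dpep1, C3 and Clec3b, was at 256 and 183 CPM, cluster 1, led by Ccn5, Eln and Sfrp2, at 154 and 83.5 CPM, and cluster 0, led by Thbs4, Cilp and haemoglobin genes, at 24.6 and 18.0 CPM. Clusters 10 and 2 lay between clusters 4 and 0, at 50.2 and 86.6 CPM and at 54.2 and 59.1 CPM. Angpt1 was at 108 and 82.0 CPM in cluster 4, 55.1 and 43.7 CPM in cluster 1, 40.2 and 35.1 CPM in cluster 10, 30.6 and 20.2 CPM in cluster 2 and 24.1 and 22.3 CPM in cluster 0, so the order of the smaller clusters was not that of Vegfd. Cluster 0 held 1904 fibroblast-like cells from ENPP1CKO and 277 from control hearts, so a low-Vegfd cluster weighed more in the former. Over the whole class the log2 ratio of ENPP1CKO to control was 0.18 for Vegfd (0.06 to 0.31, or -0.00048 with an interval of -0.26 to 0.26 after thinning) and 0.07 for Angpt1 (-0.11 to 0.24). Without cluster 0 the ratios were 0.88 (0.75 to 1.00) and 0.55 (0.36 to 0.74), so both values depended on that cluster. In the interferon-marked cluster 10, led by Ifit3 and Ifit1, Vegfd went the other way, lower for ENPP1CKO than for control (-1.58 to -0.01 on the log2 scale).

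Of the other ligands in fibroblast-like cells, Vegfc and Vegfb were higher in the ENPP1CKO library. Vegfc was at 19.7 CPM (325 UMIs) and 13.9 CPM (144 UMIs), a log2 ratio of 0.51 (0.22 to 0.80). Vegfb was at 18.5 CPM (305 UMIs) and 13.7 CPM (142 UMIs), a log2 ratio of 0.43 (0.14 to 0.73), while Vegfa was at 10.7 and 11.3 CPM (log2 -0.07) and Angpt2 at 15.2 and 13.8 CPM (log2 0.14), both with intervals that included 0. Endothelial-like cells had a higher Vegfc level than fibroblast-like cells in both libraries, at 30.4 CPM (47 UMIs) and 21.7 CPM (10 UMIs). Thinned to 1000 UMIs a cell, the Vegfc interval ran from -0.34 to 0.98 and the Vegfb interval from -0.46 to 0.81, so both included 0 at that depth. Angpt2 was spread over several classes. It was highest in lymphatic endothelial-like cells (129 CPM from 22 UMIs, and 72.7 CPM from 7 UMIs) and in smooth muscle or pericyte-like cells (58.6 CPM from 25 UMIs, and 63.9 CPM from 24 UMIs). In endothelial-like cells it was at 14.9 CPM (23 UMIs) for ENPP1CKO and 41.2 CPM (19 UMIs) for control, a log2 ratio of -1.47 (-2.41 to -0.52) that thinning moved to -0.41 (-2.11 to 1.66).

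**Figure D2:**
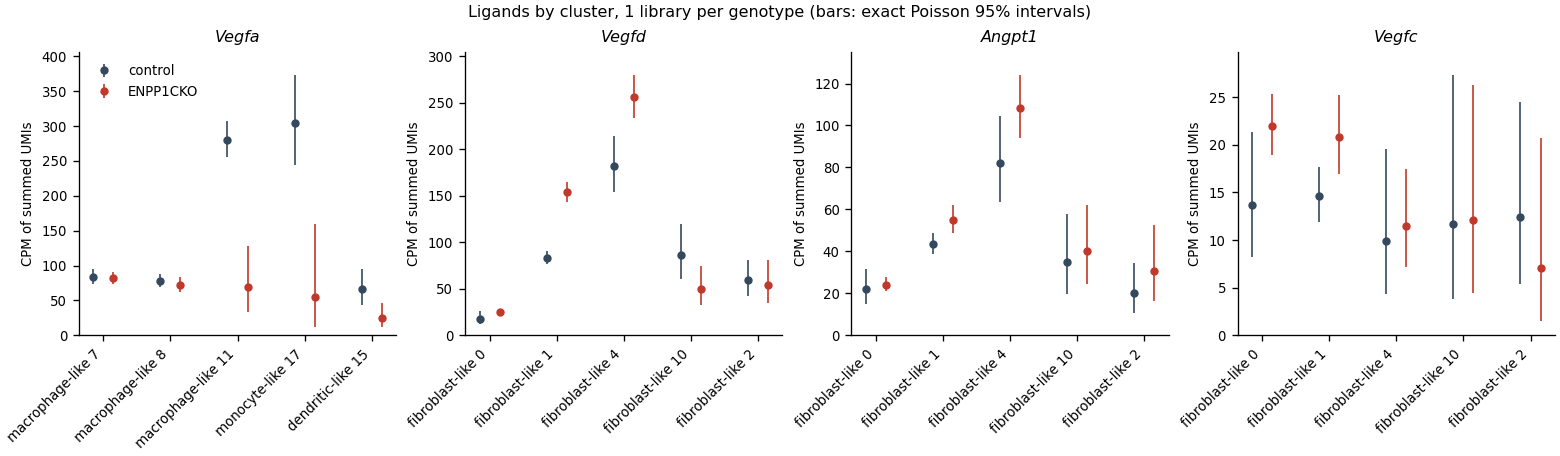
Vegfd, Angpt1 and Vegfc in 5 fibroblast-like clusters and Vegfa in 3 macrophage-like clusters, monocyte-like cluster 17 and dendritic-like cluster 15 (y axis, CPM of summed UMIs, bars exact Poisson 95% intervals) of the control and ENPP1CKO libraries. Vegfd was highest in cluster 4 (256 and 183 CPM) and lowest in cluster 0 (24.6 and 18.0 CPM), and Vegfa stood at 280 CPM in cluster 11 of the control library.

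Both VEGF-A receptors were higher in endothelial-like cells of the ENPP1CKO library. Kdr was at 412 CPM (638 UMIs) against 267 CPM (123 UMIs), a log2 ratio of 0.63 (0.35 to 0.92), and Flt1 at 497 CPM (770 UMIs) against 345 CPM (159 UMIs), a log2 ratio of 0.53 (0.28 to 0.78). The share of cells with a UMI ran the other way before thinning, 44.9% and 48.4% for Kdr and 48.0% and 52.2% for Flt1, beside median depths of 1424.5 UMIs in 868 ENPP1CKO cells and 2608 UMIs in 161 control cells. Thinning to 1000 UMIs left out cells below that depth, which kept 635 of the 868 ENPP1CKO and 147 of the 161 control cells. In the cells kept the shares were 30.9% and 24.5% for Kdr and 35.6% and 29.9% for Flt1, and the log2 ratios 0.52 (0.05 to 1.02) and 0.51 (0.08 to 0.95). The cells compared before and after thinning were therefore not the same. Macrophage-like cells, which should hold little Kdr, had a UMI of it in 0.731% and 1.01% and of Flt1 in 0.731% and 0.325%. Tek in endothelial-like cells was at 112 CPM (173 UMIs) and 91.2 CPM (42 UMIs), a log2 ratio of 0.29 (-0.20 to 0.82) that did not exclude equal levels.

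Flt4, the VEGF-C and VEGF-D receptor, marked lymphatic endothelial-like cells at 341 CPM (58 UMIs) and 353 CPM (34 UMIs), a log2 ratio of -0.05 (-0.69 to 0.61), and 46.2% and 63.3% of these cells had a UMI of it. Blood endothelial-like cells carried it at 31.0 CPM (48 UMIs) and 15.2 CPM (7 UMIs). Lymphatic cells shared Kdr with them, at 259 and 281 CPM, and Tek, at 64.7 CPM (11 UMIs) and 93.5 CPM (9 UMIs). Flt1 in fibroblast-like cells was at 2.73 CPM (45 UMIs) for ENPP1CKO and 0.385 CPM (4 UMIs) for control, a log2 ratio of 2.82 (1.37 to 4.76) at a level far under that of endothelium. Most of these UMIs (28 and 3) were in cluster 0, where the log2 ratio was 0.58 (-1.11 to 2.95). That cluster held 1904 ENPP1CKO and 277 control cells. Endothelial-like cells were 12.0% of ENPP1CKO and 3.07% of control cells, and their part in the Flt1 values was not tested. Tek in fibroblast-like cells was at 23.9 CPM (395 UMIs) and 19.0 CPM (197 UMIs), a log2 ratio of 0.34 (0.09 to 0.59), and its level was highest in cluster 4, at 44.0 and 46.0 CPM. By cluster the log2 ratio was 0.39 (0.0045 to 0.78) in cluster 1, -0.15 (-0.68 to 0.42) in cluster 0 and -0.06 (-0.64 to 0.53) in cluster 4.

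Such intervals left out 0 for many genes of the table. Of the members with at least 20 UMIs in a class, the interval left out 0 for 3 of 6 in endothelial-like cells (background over all genes 17.1%), for 5 of 9 in fibroblast-like cells (34.1%), for 1 of 6 in macrophage-like cells (32.3%), for 0 of 4 in lymphatic endothelial-like cells (12.2%) and for 0 of 1 in smooth muscle or pericyte-like cells (18.7%). Vegfa was the only such member in monocyte-like, dendritic-like and T or NK-like cells. Its log2 interval left out 0 in the monocyte-like (-4.78 to -0.88) and dendritic-like cells (-2.69 to -0.29), and not in the T or NK-like cells. No share over all genes was computed for these classes. Some related genes, chosen after their values were seen, are given for context. Nrp2, a coreceptor for VEGF-C, was at 806 and 925 CPM in lymphatic and 457 and 291 CPM in endothelial-like cells. Ptprb, the phosphatase that restrains TIE2, was at 408 and 260 CPM in endothelial-like cells. Svep1 and Ccbe1, matrix proteins needed for lymphatic growth, were at 79.3 and 48.1 CPM and at 14.4 and 7.22 CPM in fibroblast-like cells. Thbs1, an inhibitor of angiogenesis, was at 252 and 1085 CPM in macrophage-like cells. Cluster 11 of that class held 55 ENPP1CKO and 814 control cells, and its part in the Thbs1 values was not tested.

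In cultured CFs Vegfb, Vegfd and Vegfa were the higher members per length. Per kilobase of exon, the median level over the 20 libraries was 69.6 CPM for Vegfb, 33.5 for Vegfd, 32.7 for Vegfa, 10.9 for Vegfc, 9.27 for Flt4, 3.31 for Angpt1, 1.03 for Flt1, 0.527 for Tek, 0.465 for Angpt2 and 0.109 for Kdr. The order of Vegfc and Flt4 depended on the medium. With Vehicle at 24 h the group means were 12.0 CPM per kilobase for Vegfc and 8.32 for Flt4, and with AMP at 24 h they were 3.85 for Vegfc and 13.5 for Flt4, with Flt4 also above Vegfc under ENPP1+ATP and at 48 h under both media. Flt4 and then Flt1, with 416 to 1765 counts a library, were the higher receptors in these fibroblasts, and Kdr rested on 17 to 185 counts a library.

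ENPP1+ATP and AMP MCndM lowered 3 ligands sharply within 24 h. Angpt1 was at 22.5 and 22.2 CPM in the 2 Vehicle libraries, 6.80 and 6.09 CPM under ENPP1+ATP and 5.25 and 6.12 CPM under AMP. Vegfc was at 29.9 and 28.8 CPM with Vehicle, 10.0 and 9.55 CPM with ENPP1+ATP and 8.46 and 10.4 CPM with AMP. Vegfd was at 80.4 and 82.7 CPM, then at 46.1 and 45.4 CPM and at 37.3 and 37.7 CPM. In each case all treated libraries lay below both Vehicle libraries, with no overlap. For ENPP1+ATP against Vehicle the log2 fold change was -1.79 ± 0.11 (SE) for Angpt1 (edgeR quasi-likelihood test, adjusted p = 1.71e-12), -1.59 ± 0.09 for Vegfc (adjusted p = 3.18e-13) and -0.83 ± 0.06 for Vegfd (adjusted p = 2.99e-11). For AMP the edgeR values were -1.96 ± 0.11 (adjusted p = 1.97e-13), -1.62 ± 0.09 (adjusted p = 9.56e-14) and -1.12 ± 0.06 (adjusted p = 1.07e-13). Both comparisons share the Vehicle libraries, so they are not independent of each other.

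Vegfa fell less at 24 h, and Vegfb was not called. Vegfa was at 143 and 154 CPM with Vehicle, 102 CPM in both ENPP1+ATP libraries and 118 and 120 CPM with AMP, fold changes of 0.688 and 0.803. Vegfb, whose levels lay between 97.8 and 123 CPM in all 20 libraries, had log2 values of 0.11 and 0.09 at 24 h. Among the receptors, Flt4 rose. It was at 67.5 and 69.6 CPM with Vehicle, 104 and 108 CPM with ENPP1+ATP and 106 and 117 CPM with AMP, log2 changes of 0.63 ± 0.06 (edgeR adjusted p = 1.12e-08) and 0.70 ± 0.06 (adjusted p = 1.25e-09). Flt1 was slightly lower, 15.5 and 16.8 CPM with Vehicle against 11.7 and 13.8 CPM and 10.9 and 12.7 CPM, with log2 changes of -0.33 (edgeR adjusted p = 0.0414) and -0.44 (adjusted p = 0.00663). Kdr, at 0.771 and 1.37 CPM with Vehicle, was at 1.71 and 1.40 CPM with ENPP1+ATP (not called) and at 2.16 and 2.42 CPM with AMP, a log2 change of 1.15 ± 0.33 (edgeR adjusted p = 0.00528). Without Vehicle replicate 1 the Kdr change was 0.74 (adjusted p = 0.16), and the Flt1 call was lost without replicate 1 of either treatment and, for ENPP1+ATP, without either Vehicle library, with DESeq2 (adjusted p = 0.0512) and with 2 other scalings (0.0521 and 0.0932). Angpt2 and Tek, both under 4 CPM at 24 h, were not called in either comparison.

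Many genes responded, and the members' calls are given beside that share. With ENPP1+ATP at 24 h, 6 of 10 members passed the threshold of an adjusted p under 0.05, 1 higher and 5 lower, where 49.1% of 17879 genes tested did (23.9% higher, 25.3% lower). With AMP at 24 h it was 7 of 10, 2 higher and 5 lower, where 52.8% of genes did (25.3% higher, 27.5% lower). Marker lists of several kinds moved alongside. The fibroblast list summed to 3364 to 3467 CPM with ENPP1+ATP and 2633 to 2848 CPM with AMP at 24 h, and 4 cycle genes to 2604 to 2888 CPM and 2475 to 2802 CPM, against 1020 to 1073 CPM in the Vehicle libraries of both times. Within the fibroblast list Dcn was higher, at 18.9 and 19.4 CPM and at 16.7 and 17.2 CPM against 12.8 and 13.3 CPM. The 8 macrophage markers summed to 3.15 to 3.17 CPM with Vehicle, 21.6 to 27.7 CPM with ENPP1+ATP and 46.1 to 46.2 CPM with AMP, and the 7 smooth muscle or pericyte markers to 114 to 118, 159 to 161 and 165 to 178 CPM. The lymphatic endothelial list (5 of 6 genes in the table), whose cells are known for Flt4, summed to 65.4 to 69.9 CPM, 95.2 to 99.9 CPM and 111 to 120 CPM. In it Pdpn, which fibroblasts can also express, was at 63.4 and 67.9 CPM with Vehicle, 95.3 and 90.9 CPM with ENPP1+ATP and 107 and 116 CPM with AMP, and Prox1 at 0.913 and 0.920, 3.48 and 3.15, and 3.72 and 3.48 CPM. Mmrn1 was at 0.972 and 0.985 CPM with Vehicle and 0.195 and 0.235 CPM with AMP, and Lyve1 at or near 0 throughout. Few genes carried the macrophage and pericyte sums at either hour. Of the macrophage list only Cd68 (1.92 and 2.06 CPM with Vehicle, 36.1 and 38.1 CPM with AMP) and Csf1r (0.841 and 0.867 CPM, 9.68 and 7.90 CPM) were above 0.167 CPM in any CF library, and Adgre1, C1qa, C1qb, C1qc, Fcgr1 and Mrc1 were at or near 0 throughout. The smooth muscle or pericyte sum was almost wholly Notch3, at 113 and 118 CPM with Vehicle and 164 and 176 CPM with AMP, where the other 6 genes did not exceed 2.12 CPM in any CF library. The part of these lists in the member changes was not tested.

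**Figure D3:**
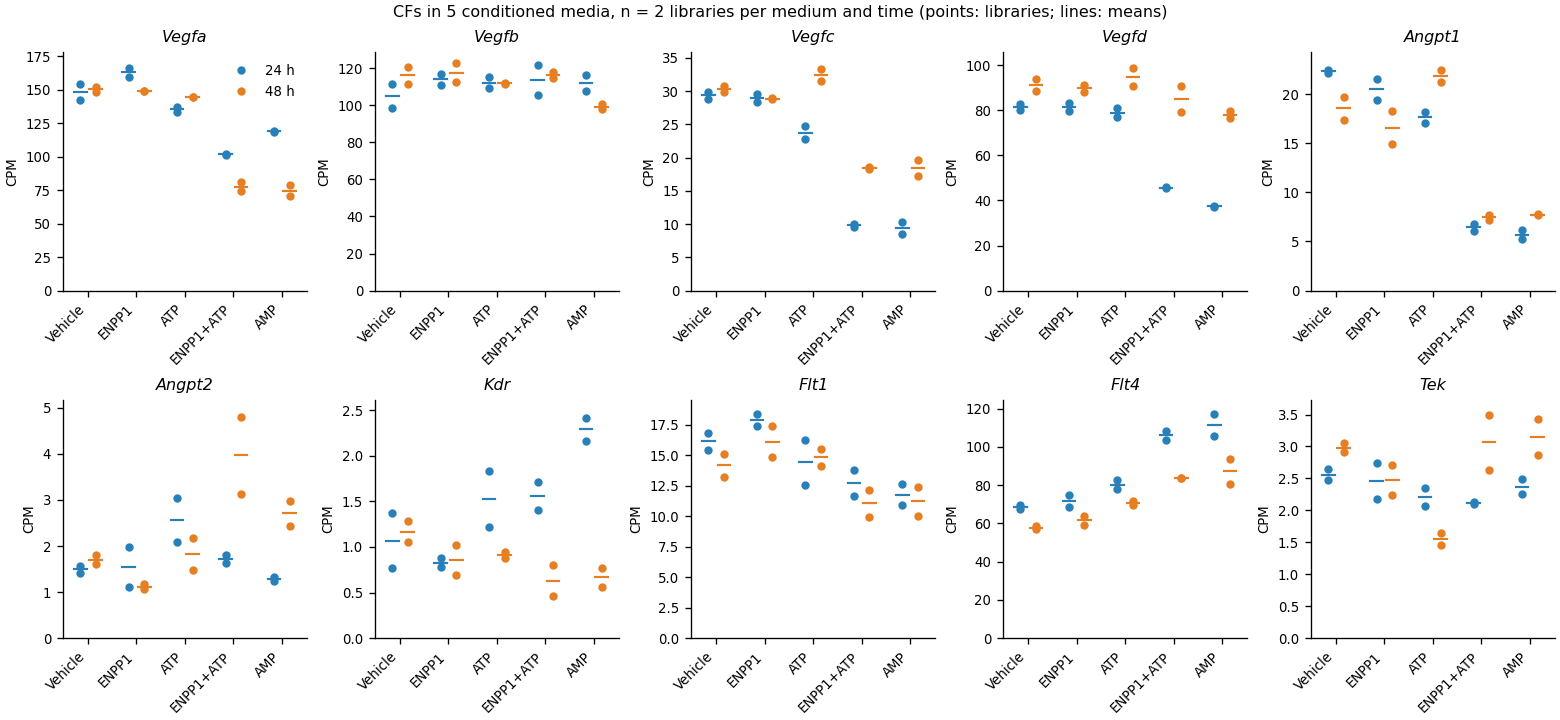
CPM of the 10 genes in each of the 20 CF libraries (points) by MCndM and hour of exposure, with group means as short lines (n = 2). Angpt1, Vegfc and Vegfd sat low under ENPP1+ATP and AMP at 24 h, Vegfd stood between 76.5 and 91.0 CPM under them at 48 h, and Vegfa was lowest at 48 h, between 70.6 and 81.1 CPM.

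By 48 h the order of the ligands had changed. Vegfa had fallen further, to 74.1 and 81.1 CPM with ENPP1+ATP and 70.6 and 78.9 CPM with AMP against 148 and 152 CPM with Vehicle, fold changes of 0.516 (log2 -0.96 ± 0.05, edgeR adjusted p = 3.34e-13) and 0.498 (log2 -1.01 ± 0.05, adjusted p = 1.14e-13). Angpt1 was still low, at 7.18 and 7.74 CPM and at 7.72 and 7.75 CPM against 19.7 and 17.4 CPM, log2 changes of -1.32 and -1.26 (edgeR adjusted p = 5.08e-10 and 8.61e-10). Vegfc was nearer to Vehicle than at 24 h, at 18.3 and 18.6 CPM and at 19.6 and 17.2 CPM against 30.8 and 29.9 CPM (log2 -0.72 in both). Vegfd was close to Vehicle at this hour. With ENPP1+ATP it was at 79.4 and 91.0 CPM against 88.6 and 93.9 CPM, groups that overlapped (log2 -0.10, edgeR adjusted p = 0.18), and with AMP at 79.7 and 76.5 CPM (log2 -0.22, adjusted p = 0.00317). Angpt2, the context-dependent TIE2 ligand, rose with ENPP1+ATP from 1.80 and 1.60 CPM to 4.80 and 3.14 CPM, a log2 change of 1.22 ± 0.28 (edgeR adjusted p = 9.19e-04), and was at 2.98 and 2.44 CPM with AMP (log2 0.67, adjusted p = 0.0621).

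Flt4 stayed higher at 48 h, at 83.7 and 83.6 CPM with ENPP1+ATP and 80.6 and 93.8 CPM with AMP against 56.9 and 58.6 CPM (log2 0.53 and 0.59, edgeR adjusted p = 2.71e-07 and 4.79e-08). Kdr, raised under AMP at 24 h, was now at 0.803 and 0.460 CPM and at 0.769 and 0.565 CPM against 1.05 and 1.29 CPM, log2 values of -0.87 and -0.81 that did not pass (edgeR adjusted p = 0.059 and 0.0777). Flt1 was at 9.94 and 12.2 CPM and at 10.0 and 12.4 CPM against 13.2 and 15.1 CPM (log2 -0.36 and -0.34, adjusted p = 0.0357 and 0.0492), and both calls were lost without treatment replicate 1 or Vehicle replicate 2, that of AMP also without Vehicle replicate 1 (adjusted p = 0.0507) and with DESeq2 (0.0638) or its size factors (0.0649), and that of ENPP1+ATP with only the groups compared (0.0648). In all, 6 of 10 members passed with ENPP1+ATP, 2 higher and 4 lower (background 45.2%, 20.8% higher and 24.4% lower), and 7 of 10 with AMP, 1 higher and 6 lower (background 44%, 21.1% higher and 22.9% lower). For AMP only 4 of the 7 passed without Vehicle replicate 2, since the small changes of Vegfb (-0.23), Vegfd and Flt1 then did not. The fibroblast marker list summed to 3500 to 3728 CPM with ENPP1+ATP and 3715 to 3964 CPM with AMP, against 6731 to 7101 CPM with Vehicle, the macrophage list to 56.4 to 66.4 CPM and 62.2 to 72.2 CPM against 3.83 to 3.93 CPM, and the smooth muscle or pericyte list to 351 to 363 CPM and 395 to 421 CPM against 127 to 132 CPM. Cd68 (47.8 to 64.8 CPM under these media) and Notch3 (349 to 419 CPM) made up most of these 2 sums, while the smooth muscle gene Myh11 was at 0.161 and 0.0271 CPM with ENPP1+ATP and 0.457 and 0.248 CPM with AMP against 0.515 and 0.562 CPM. The lymphatic endothelial list summed to 171 to 189 CPM with ENPP1+ATP and 170 to 174 CPM with AMP against 68.7 to 69.6 CPM, nearly all of it Pdpn (168 to 187 CPM under these media), with Prox1 at 1.27 to 2.33 CPM, a range that holds both Vehicle values. The monocyte list summed to 135 to 139 CPM and 128 to 160 CPM against 43.3 to 47.7 CPM, nearly all of it the matrix proteoglycan gene Vcan, with Ly6c2 and Chil3 at 0 and Ccr2 and Plac8 at or near 0. The part of these lists in the Flt4 change was not tested.

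**Figure D4:**
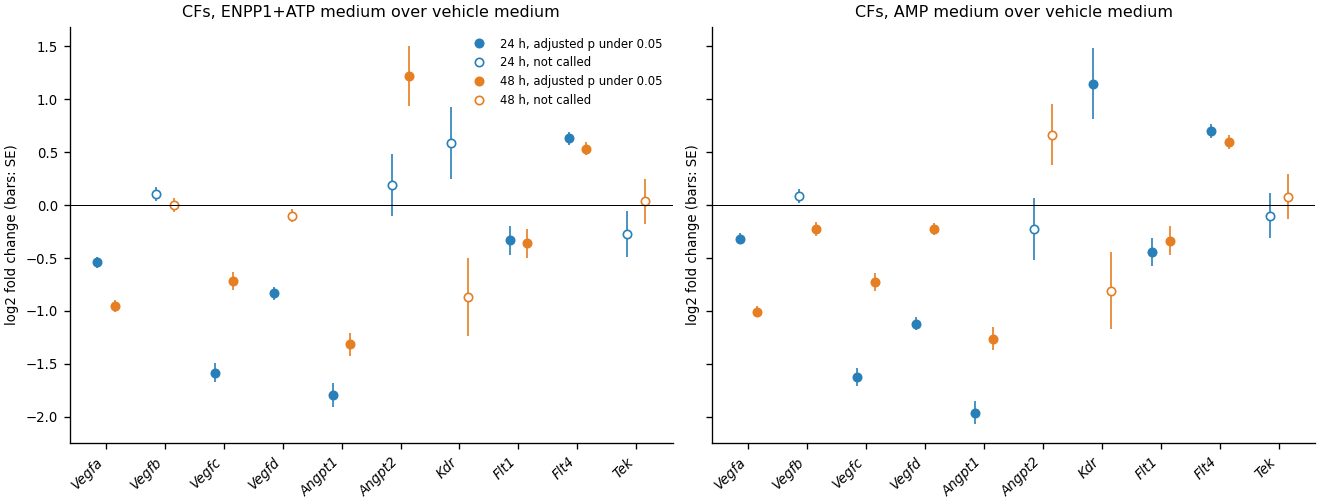
Log2 fold change against Vehicle (points, with SE bars, edgeR) of the 10 genes in CFs under ENPP1+ATP and AMP MCndM at 24 h and 48 h, filled where the adjusted p was under 0.05. Under ENPP1+ATP the Vegfd value was -0.83 at 24 h and -0.10 at 48 h, and the Vegfa value -0.54 and -0.96.

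ATP or ENPP1 alone moved few members. With ATP at 24 h, 3 of 10 members passed (background 11.1%): Vegfc at 24.8 and 22.8 CPM (log2 -0.31, edgeR adjusted p = 0.0156), Angpt1 at 18.2 and 17.1 CPM (log2 -0.34, adjusted p = 0.0295) and Flt4 at 77.9 and 82.6 CPM (log2 0.23, adjusted p = 0.0213). None of the 3 passed without ATP replicate 2 or without either Vehicle library. With ATP at 48 h, 2 of 10 passed (background 7.83%), Flt4 at 71.5 and 69.8 CPM (log2 0.29, edgeR adjusted p = 0.00503) and Tek at 1.65 and 1.46 CPM against 2.91 and 3.06 CPM (log2 -0.93, adjusted p = 0.00736). The Tek call was lost without any 1 of its 4 libraries, and that of Flt4 without ATP replicate 1 or Vehicle replicate 1. Marker lists moved with ATP as well. The lymphatic endothelial list summed to 90.2 to 102 CPM at 24 h (Vehicle 65.4 to 69.9 CPM) and 132 to 134 CPM at 48 h (Vehicle 68.7 to 69.6 CPM). The fibroblast list summed to 4948 to 5238 CPM at 24 h (Vehicle 6857 to 7200 CPM) and 6500 to 6561 CPM at 48 h (Vehicle 6731 to 7101 CPM). The part of these lists in the ATP changes was not tested. With ENPP1 no member passed at 24 h or 48 h, nor did any gene at all (background 0% at both times by edgeR, with 249 and 743 genes at an unadjusted p under 0.05).

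The change with time was also tested within each medium. From 24 h to 48 h under ENPP1+ATP, 6 of 10 members passed (background 40.7%): Vegfc rose by 0.92 ± 0.09 log2 units, Vegfd by 0.90 and Angpt2 by 1.21, while Vegfa fell by 0.40, Flt4 by 0.34 and Kdr by 1.28. Under AMP 8 of 10 passed (background 43.1%), with Vegfd up by 1.06, Vegfc by 0.95, Angpt2 by 1.07 and Angpt1 by 0.43 and with Vegfa at -0.67, Kdr at -1.78, Flt4 at -0.35 and Vegfb at -0.17. Under ATP 3 of 10 passed (background 14.8%), 3 ligands that rose: Vegfc by 0.45, Angpt1 by 0.31 and Vegfd by 0.26. Flt4 (-0.18 with the block, -0.19 with DESeq2) passed there in 6 alternatives (adjusted p from 0.0188 to 0.049), and Angpt1 did not with size factors of DESeq2 or total counts only (0.0551 and 0.0555). Flt4 alone passed under Vehicle (log2 -0.25, background 4.88%) and under ENPP1 (log2 -0.22, background 7.95%), and its call under Vehicle was lost without any 1 of the 4 libraries, that under ENPP1 without all but ENPP1 replicate 2 at 48 h. Scaled by total counts only, Flt4 passed in neither (edgeR adjusted p = 0.0795 and 0.147) and Vegfd passed in both (log2 0.21 and 0.19, adjusted p = 0.0256 and 0.0394). With only the groups compared, Vegfd (log2 0.17, adjusted p = 0.00891) and Angpt1 (log2 -0.27, adjusted p = 0.00821) passed under Vehicle beside Flt4, and the AMP time call of Angpt1 was lost (adjusted p = 0.0746). Single libraries also decided the time calls of Kdr with ENPP1+ATP (lost without replicate 1 at 24 h or 2 at 48 h), of Vegfb with AMP (without replicate 1 at either hour or 2 at 48 h), of Angpt1 with ATP (without any 1 of 4) and of Vegfd with ATP (without replicate 2 at 24 h or 1 at 48 h).

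Whether the effect of a medium differed between 24 h and 48 h was tested as an interaction, the 48 h effect minus the 24 h effect. For ENPP1+ATP 5 of 10 members passed (background 30%). The Vegfd effect shrank (0.73 ± 0.08, edgeR adjusted p = 3.50e-07), as did those of Vegfc (0.87, adjusted p = 6.40e-06) and Angpt1 (0.48, adjusted p = 0.023). The Vegfa effect grew (-0.42, adjusted p = 1.53e-04), and that of Kdr turned downward (-1.46, adjusted p = 0.0302). For AMP 6 of 10 passed (background 31.7%), with Vegfb at -0.31 (edgeR adjusted p = 0.013), Vegfd at 0.90, Vegfc at 0.90, Angpt1 at 0.70, Vegfa at -0.69 and Kdr at -1.96. With ENPP1+ATP only 3 of the 5 passed without replicate 1 of Vehicle at 24 h or replicate 2 of Vehicle at 48 h, those lost being Kdr and Angpt1. Kdr was also lost without ENPP1+ATP replicate 1 at 24 h or 2 at 48 h and with only the groups compared (edgeR adjusted p = 0.0555), Angpt1 without replicate 2 of ENPP1+ATP at either hour or of Vehicle at 24 h and with total counts only (log2 0.35, adjusted p = 0.101), and the AMP call of Vegfb without replicate 1 of AMP at either hour or replicate 2 of Vehicle at either hour. The Flt4 interaction did not pass for either medium, except for AMP when libraries were scaled by total counts only (-0.25, adjusted p = 0.0346).

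NRVM cultures read the same media with another profile of levels. Vegfa had the highest CPM of the ligands, at 297 to 325 CPM in the 3 Vehicle libraries, with levels not divided by gene length. In mouse Vegfa has 4.285 kb of exon and Vegfb 1.605 kb, so this order need not hold per length. Vegfa moved little. It was at 286 to 294 CPM with ENPP1+ATP (log2 -0.09, edgeR adjusted p = 0.0462), 299 to 314 CPM with AMP (not called) and 247 to 262 CPM with ATP (log2 -0.27, adjusted p = 2.00e-07). The ENPP1+ATP call was lost without ENPP1+ATP replicate 1 or 2 or Vehicle replicate 3. It was also lost with total counts only (log2 -0.035, edgeR adjusted p = 0.465). Vegfb was at 127, 129 and 135 CPM with Vehicle, at 151, 152 and 139 CPM with AMP (log2 0.18, edgeR adjusted p = 0.00105) and at 112, 102 and 106 CPM with ATP (log2 -0.29, adjusted p = 1.10e-06).

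Vegfc, Vegfd and Angpt1 fell in the NRVMs. Vegfc was at 17.2, 22.8 and 21.8 CPM with Vehicle, at 6.48, 8.30 and 6.85 CPM with ENPP1+ATP, at 5.26, 7.79 and 6.17 CPM with AMP and at 8.64, 8.67 and 9.13 CPM with ATP, and no treated library reached a Vehicle one. Its log2 changes were -1.51 ± 0.13 (edgeR adjusted p = 5.92e-14), -1.68 ± 0.13 (adjusted p = 4.13e-15) and -1.22 (adjusted p = 8.34e-12). Vegfd went from 17.9, 17.6 and 14.5 CPM to 8.66, 9.45 and 8.40 CPM with ENPP1+ATP (log2 -0.91, edgeR adjusted p = 6.24e-09) and to 9.81, 11.4 and 8.97 CPM with AMP (log2 -0.72, adjusted p = 6.24e-07). Angpt1, at 3.30, 3.24 and 3.65 CPM with Vehicle, was at 1.90, 1.60 and 1.74 CPM, at 1.25, 1.65 and 1.82 CPM and, with ATP, at 1.64, 1.84 and 0.965 CPM, log2 changes of -0.96, -1.11 and -1.19 (edgeR adjusted p = 0.00154, 3.66e-04 and 1.35e-04).

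Receptor mRNA moved in both directions. Tek fell from 18.0, 21.5 and 18.0 CPM to 5.85, 7.41 and 6.33 CPM with ENPP1+ATP (log2 -1.55 ± 0.14, edgeR adjusted p = 3.66e-11), to 7.90, 8.13 and 13.5 CPM with AMP (log2 -0.97, adjusted p = 2.07e-07) and to 10.5, 10.8 and 10.4 CPM with ATP (log2 -0.86, adjusted p = 1.07e-06). Kdr rose from 7.22, 5.44 and 5.78 CPM to 12.0, 12.5 and 13.1 CPM with ENPP1+ATP, a log2 change of 1.03 ± 0.13 (edgeR adjusted p = 8.91e-09), to 10.9, 10.4 and 8.76 CPM with AMP (log2 0.70) and to 7.92, 8.49 and 9.01 CPM with ATP (log2 0.46). All of these groups lay apart from the Vehicle libraries. Flt1 fell with ENPP1+ATP (9.35, 9.02 and 7.84 CPM to 4.65, 5.81 and 6.27 CPM, log2 -0.65) and with AMP (2.17, 2.58 and 5.05 CPM, log2 -1.43), and not with ATP (9.23, 9.50 and 8.11 CPM). Flt4 was at 8.66, 9.02 and 8.14 CPM with Vehicle and at 11.1, 13.2 and 13.5 CPM with AMP (log2 0.55, edgeR adjusted p = 9.06e-04). With ATP it was at 10.1, 13.9 and 11.1 CPM (log2 0.45, adjusted p = 0.00581), a call lost without ATP replicate 2, and with ENPP1+ATP at 9.30, 11.9 and 9.18 CPM (not called).

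In the NRVMs 7 of 10 members passed with ENPP1+ATP, 1 higher and 6 lower (background 56% of 13461 genes, 28.6% higher and 27.4% lower), 8 with AMP, 3 higher and 5 lower (57.2%, 29.2% higher and 28% lower) and 8 with ATP, 2 higher and 6 lower (59.9%), the small ATP change of Vegfd (log2 -0.25) being lost without most single libraries, with DESeq2 (adjusted p = 0.0644) and with total counts only (0.245). With ENPP1 no member and no gene passed (background 0% by edgeR, 693 genes at an unadjusted p under 0.05). Markers of other cells moved in the same libraries. In bulk samples fewer cells of a type and less RNA per cell cannot be told apart. The fibroblast list (7 of 8 genes listed) summed to 24748 to 26134 CPM with Vehicle, 8274 to 8735 CPM with ENPP1+ATP, 11517 to 12293 CPM with AMP and 10367 to 11702 CPM with ATP. Within it Tcf21 was at 50.0 to 59.9 CPM and then at 10.1 to 11.7, 9.28 to 9.96 and 3.98 to 6.81 CPM, whereas Dcn was at 55.6 to 68.8 CPM with Vehicle, 62.4 to 70.4 CPM with ENPP1+ATP, 69.1 to 74.6 CPM with AMP and 41.0 to 57.0 CPM with ATP, and Lum at 23.2 to 29.3 CPM with Vehicle, 30.6 to 32.8 CPM with ENPP1+ATP and 33.0 to 85.7 CPM with AMP. The endothelial list (7 of 8 genes listed, Pecam1 not) summed to 16.4 to 18.3 CPM with Vehicle, 18.8 to 22.0 CPM with ENPP1+ATP, 18.7 to 53.1 CPM with AMP and 31.7 to 46.7 CPM with ATP. The cardiomyocyte list (7 of 8) summed to 28254 to 29234 CPM with Vehicle and to 15825 to 16761 CPM with ATP. It summed to 23348 to 24319 CPM with ENPP1+ATP and 27147 to 28523 CPM with AMP. Within it Myh6 was at 1632 to 1742 CPM with Vehicle, 2786 to 2957 CPM with ENPP1+ATP and 2648 to 3196 CPM with AMP. Tnni3 was at 861 to 922 CPM with Vehicle and 982 to 1049 CPM with ATP. The macrophage list (7 of 8), mostly Cd68 and Csf1r, summed to 2.97 to 3.37 CPM with Vehicle. It summed to 7.03 to 8.34 CPM with ENPP1+ATP, 6.51 to 8.98 CPM with AMP and 11.5 to 13.9 CPM with ATP. The monocyte list (2 of 5), mostly Vcan, summed to 244 to 278 CPM with Vehicle. With ENPP1+ATP, AMP and ATP it summed to 87.1 to 95.1, 78.3 to 116 and 87.7 to 113 CPM. The part of these cells in the member changes was not tested.

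Angpt2 was far above the rest in 2 NRVM libraries. It was at 1.99, 2.41 and 1.90 CPM with Vehicle and at 10.4 CPM in ATP replicate 2 and 19.6 CPM in AMP replicate 3, against 2.16 and 2.12 CPM and 1.51 and 1.85 CPM in their partners. Its log2 change was 1.23 with ATP and 1.84 with AMP, neither called, and became 0.02 without ATP replicate 2 and -0.32 without AMP replicate 3. The pericyte gene Rgs5 was at 2.08 and 5.82 CPM in those 2 libraries, against 0.327 and 0.708 CPM and 0.790 and 0.727 CPM in their partners and 0.304 to 0.551 CPM with Vehicle. Myh11 was at 60.8 and 44.9 CPM there against 21.8 to 24.8 CPM with Vehicle, Notch3 at 55.6 and 67.4 CPM against 25.6 to 32.1 CPM, and the endothelial gene Cldn5 at 1.60 and 2.59 CPM against 0 to 0.304 CPM, each above the partners as well. The pericyte gene Kcnj8 was at 0.534 and 1.68 CPM there, the former below the Vehicle range of 0.756 to 1.03 CPM. The other genes of the smooth muscle or pericyte list did not exceed Vehicle in both libraries. Cspg4 was at 154 and 135 CPM, above the partners but below the Vehicle range of 215 to 235 CPM. Abcc9 was at 99.2 and 128 CPM against 103 to 108 CPM with Vehicle, and Vtn at 0.416 and 0.421 CPM against 0.228 to 0.620 CPM. The endothelial gene Cdh5 was at 25.9 and 30.6 CPM, but also at 20.4 and 15.2 CPM in the ATP partners and 6.78 and 12.0 CPM in the AMP partners, against 5.10 to 6.39 CPM with Vehicle. In ENPP1 replicate 2 Cldn5 was at 1.93 CPM, Rgs5 at 1.33 CPM, Myh11 at 40.2 CPM and Notch3 at 41.7 CPM. Angpt2 was at 3.26 CPM in that library. Within ATP, ENPP1 and ENPP1+ATP, Myh11 and Cldn5 were each highest in replicate 2, and within AMP in replicate 3. With Vehicle they were highest in replicates 1 and 3. The part of these markers in the Angpt2 levels was not tested. With ENPP1+ATP Angpt2 was at 3.31, 4.79 and 2.65 CPM (log2 0.77, edgeR adjusted p = 0.60), all above the Vehicle libraries. Rgs5 was at 1.13, 1.47 and 0.582 CPM in the same libraries, also all above Vehicle, and Myh11 at 16.2, 41.4 and 19.1 CPM. That change passed when only the groups compared were fitted (adjusted p = 0.0075) and when those 2 libraries of other media were left out of the shared fit (adjusted p = 0.0085), the latter an alternative chosen after seeing the data.

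**Figure D5:**
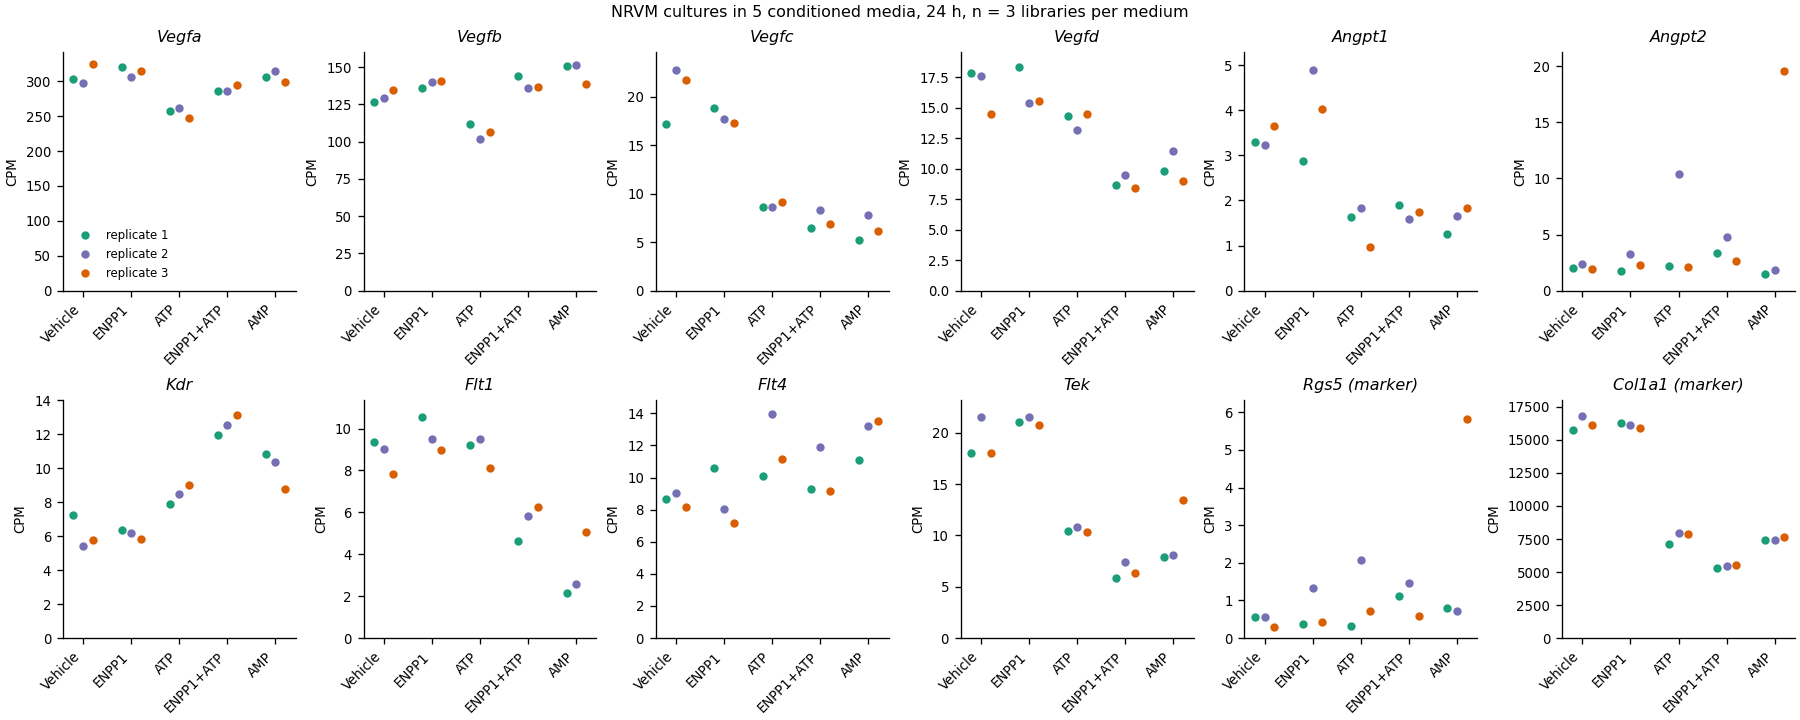
CPM of the 10 genes and of the markers Rgs5 (pericytes) and Col1a1 (fibroblasts) in each of the 15 NRVM libraries at 24 h, as points by MCndM (n = 3). Colour gives the replicate number, which the labels tie to no batch or day. Vegfc, Vegfd, Angpt1 and Tek were low and Kdr high under ENPP1+ATP and AMP, and Angpt2 was high in 1 ATP (10.4 CPM) and 1 AMP library (19.6 CPM).

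Around the 10 genes, 53 other genes of the pathway were followed in 4 lists: related ligands, coreceptors, binding partners and inhibitors (15), signalling proteins downstream of the receptors (16), genes that VEGF induces in endothelial cells (12) and regulators of Vegfa transcription (10). The partner list was mostly lower in CFs at 24 h. There 11 of 14 tested genes of it were lower and 1 higher with ENPP1+ATP (median log2 -0.68) and 12 lower and 1 higher with AMP (median -0.86), where the medians of all genes tested were -0.00456 and -0.00583. Ccbe1, which helps activate VEGF-C, was at -2.52 and -4.10 (2.32 and 2.43 CPM with Vehicle, 0 and 0.222 CPM with AMP), and Svep1 at -1.38 and -1.90. Without AMP replicate 2, which left the AMP library at 0 CPM, the Ccbe1 value was -9.80. Angpt4, a further TIE2 ligand, was at -1.35 and -1.68, the former call lost without replicate 1 of ENPP1+ATP or of Vehicle (edgeR adjusted p = 0.0626 and 0.0601). At 48 h 7 and 6 of 14 were lower (medians -0.24 and -0.19), while the neuropilin Nrp1 was higher (0.41 and 0.53). In the NRVMs 9 of 13 were called lower with ENPP1+ATP (median -0.37) and none was called higher, and 8 were lower and 2 higher with AMP (median -0.24). Svep1 (-1.99) with ENPP1+ATP and the integrin Itgb3 (-1.25 and -1.56) were among those lower. With AMP the 2 higher were Tie1, the receptor that pairs with TIE2, and Ptprb, the phosphatase that acts on TIE2. Tie1 was at 11.1, 12.2 and 41.2 CPM against 5.84, 6.48 and 3.88 CPM (log2 1.97, edgeR adjusted p = 0.00942), and at log2 1.09 (adjusted p = 0.0111) without AMP replicate 3. Ptprb was at 3.09, 2.58 and 3.30 CPM against 1.79, 2.07 and 2.21 CPM (log2 0.56, edgeR adjusted p = 0.0458), a call lost without any 1 of the libraries other than AMP replicate 2. In the same AMP libraries the endothelial gene Cdh5 was at 6.78, 12.0 and 30.6 CPM against 5.10 to 6.39 CPM. Nos3 was at 4.34, 4.62 and 18.4 CPM against 1.60 to 3.58 CPM, and Esam at 1.84, 1.98 and 4.77 CPM against 2.13 to 2.76 CPM. The part of endothelial cells in the Tie1 and Ptprb values was not tested.

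The other lists moved less evenly, and all counts are to be read beside the shares of all genes called, 49.1% and 52.8% at 24 h and 45.2% and 44% at 48 h in CFs and 56% and 57.2% in NRVMs for ENPP1+ATP and AMP. Of genes that VEGF induces in endothelium, 7 of 11 tested were higher and 3 lower with ENPP1+ATP at 24 h in CFs and 6 higher and 2 lower with AMP, among them the Notch target Nrarp (2.87 and 2.71) and the chemokine receptor Cxcr4 (2.46 with ENPP1+ATP), both expressed at under 1 CPM, and with the metalloprotease Adamts1 lower (-2.13 and -2.31). The Cxcr4 call with ENPP1+ATP was lost without its replicate 2 (log2 1.41, edgeR adjusted p = 0.137). At 48 h the VEGF-induced list counted 2 higher and 2 lower with ENPP1+ATP (median -0.20) and 3 and 3 with AMP (median 0.069), and in the NRVMs 2 higher and 4 lower with each (medians -0.24 and -0.15). Downstream signalling genes counted 2 higher and 3 lower of 14 with ENPP1+ATP at 24 h and 8 higher and 4 lower at 48 h (9 and 4 with AMP). Src (0.58 and 0.74) and the focal adhesion kinase gene Ptk2 (0.65 and 0.69) were among those higher at 48 h, and the adaptor Grb14 (-1.14 and -1.32) among those lower. Among regulators of Vegfa transcription, 4 of 10 were higher and 4 lower with ENPP1+ATP at 24 h, and 3 higher and 4 lower at 48 h. Atf4, the stress-response factor that can activate Vegfa, was at -0.50 and -0.34 at 24 h and at -1.21 and -1.23 at 48 h. Hif1a, the hypoxia factor, was at -0.22 with ENPP1+ATP at 24 h and at 0.28 at 48 h. In NRVMs Atf4 was at -0.83 with both media and Vegfa at -0.09 and -0.01. The coactivator Ppargc1a was at 0.62 and 0.69 in NRVMs and at -1.02 and -1.30 in CFs at 24 h. The part of these regulators in the Vegfa values was not tested.

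Genes with the profile most like a member's were sought by Pearson's r, given as a description. Over the 20 CF libraries Vegfa was close to Tm7sf2 (r = 0.984), an enzyme gene of sterol synthesis, and to the lipoprotein receptor gene Lrp8 (0.981). Angpt1 was closest to the matrix gene Thbs3 (0.990), to Rcn1 (0.989) and to Twist1 (0.983), Vegfc to Kif26b (0.989), Gng12 (0.987) and Sfrp2 (0.985), Vegfd to the chaperone gene Hspa8 (0.977), and Flt4 to Chrnb1 (0.972). Libraries of 1 medium share their treatment, so these values rest on few conditions. Over the 15 NRVM libraries Vegfc was closest to Pde8a (0.986), Tek to Fbln2 (0.984), Vegfa to Myo18b (0.967) and Angpt2 to the pericyte gene Rgs5 (0.905). Over the 19 single-cell clusters, whose cells come from the same 2 libraries, Vegfd was close to Angpt1 (0.961) and Aldh1a1 (0.960), and Angpt1 was closest to Pcdh9 (0.996), Kdr to Podxl (0.936) and Flt4 to Stap2 (0.938).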

How the data were processed

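Nonmyocyte single-cell UMI counts (2 libraries), CF read counts (20 libraries) and NRVM read counts (15 libraries) were used. All values are raw counts per gene as deposited by the authors; per the labels they came from Cell Ranger and STAR 2.5.3a with the builds mm10 and rn6, the role of each not being stated, and the read counter was not given in the sources used here. No per-sample column was left unmapped. The members and the gene lists were chosen with earlier results of these data known.

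Bulk counts were fitted with edgeR 4.0.16 (TMM scaling, filterByExpr, robust quasi-likelihood F tests) in R 4.3.3, with 1 fit per table over all of its groups and Benjamini-Hochberg adjustment over all genes tested. A gene was called at an adjusted p under 0.05. Printed CPM values use the TMM-scaled library sizes. The fits were tested on simulated counts before use. DESeq2 1.42.0, other scalings, no filter, a replicate block, fits of only the groups compared and leaving out each library were the alternatives.

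Single cells with at least 200 genes and at most 20% mitochondrial UMIs were kept, doublets called by Scrublet were removed (150 and 73), and cells were clustered in scanpy 1.11.5 (2000 variable genes without the members and pathway lists, 30 components, 15 neighbours, Leiden resolution 0.5). A cluster was named from at least 3 detected markers. Of the 19 clusters 1 (Clu, Serpinb2, Saa3, Wt1) stayed unnamed. UMIs were summed per library and class and given as CPM with exact Poisson 95% intervals, and ratios with exact conditional binomial intervals, from 20 UMIs upward. UMIs of 1 library are not biological replicates. Sequences are from RefSeq (GRCm38.p6).

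The genes named beside the members were, for ENPP1+ATP and AMP against Vehicle and each pathway list, up to 3 genes with the largest change in each direction among those called, and the 3 genes with the highest Pearson's r to a member (at least 1 CPM on average, or 100 UMIs). The single-cell levels of Nrp2, Ptprb, Svep1, Ccbe1 and Thbs1 were chosen after their values were seen. Some genes that this rule names are not reported here.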

Additional observations from a re-analysis of the deposited data

Results flagged for a closer look

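Several members responded to the same MCndM differently at 24 h and 48 h in CFs, by the edgeR interaction (48 h effect minus 24 h effect, log2 scale). For ENPP1+ATP the difference was -0.42 for Vegfa, 0.87 for Vegfc, 0.73 for Vegfd, -1.46 for Kdr and 0.48 for Angpt1. For AMP it was -0.69 for Vegfa, -0.31 for Vegfb, 0.90 for Vegfc, 0.90 for Vegfd, -1.96 for Kdr and 0.70 for Angpt1. The 2 media share the Vehicle libraries, and Kdr rested on 17 to 185 counts a library.

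For some members the values had opposite signs in CFs at 48 h and NRVMs at 24 h, with every treated library on the opposite side of its Vehicle libraries. The exposure, species and count table differ between the cells, and the difference was not tested. Of the CF values only that of Vegfb with AMP passed the threshold, whereas all of the NRVM values did. With ENPP1+ATP the log2 change of Kdr was -0.87 in CFs and 1.03 in NRVMs. With AMP it was -0.81 and 0.70 for Kdr and -0.23 and 0.18 for Vegfb. With ATP it was 0.093 and -1.22 for Vegfc, -0.35 and 0.46 for Kdr, and 0.24 and -1.19 for Angpt1. At the matched hour of 24 h each of these CF values had the sign of the NRVM value: Kdr was at 0.59 with ENPP1+ATP, 1.15 with AMP and 0.56 with ATP, Vegfb at 0.086 with AMP, and Vegfc and Angpt1 at -0.31 and -0.34 with ATP, of which Kdr with AMP and the 2 ATP values of Vegfc and Angpt1 passed.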

How the results depend on the processing

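No member's bulk log2 fold change with a call changed sign under any alternative run. Over the alternatives other than leaving out a library, 115 counts of members called were within 1.5 times the main count and 3 moved: Flt4 with ENPP1 at 48 h against 24 h, the 1 call there, became 0 with DESeq2-type size factors in edgeR and 0 with only the groups compared, and Vehicle at 48 h against 24 h went from 1 to 3 with only the groups compared. An equal count can hold other genes: with total counts only, Vegfd took the place of Flt4 for Vehicle and ENPP1 at 48 h against 24 h. Calls gained were, with total counts only, Vegfb with ENPP1+ATP and AMP in CFs at 24 h (adjusted p = 0.0371 and 0.0487), Vegfd and Kdr with ENPP1+ATP at 48 h (0.0171 and 0.0416) and Vegfb with ENPP1+ATP in NRVMs (0.00350), and, with only the groups compared, Angpt2 with ATP at 24 h (0.0289), Angpt2 with AMP and Angpt1 with ATP at 48 h (0.0262 and 0.0404) and the Angpt2 interaction for ENPP1+ATP (0.0421). Leaving out a library gave, in CFs at 24 h, 5 to 7 members called for ENPP1+ATP, 6 to 7 for AMP and 0 to 2 for ATP, and at 48 h 5 to 7, 4 to 7 and 0 to 1. For 48 h against 24 h it gave 5 to 7 for ENPP1+ATP, 7 to 8 for AMP, 1 to 2 for ATP, 0 to 1 for ENPP1 and 0 for Vehicle, and for the interactions 3 to 5 and 5 to 6. In NRVMs it gave 6 to 7 for ENPP1+ATP, 8 for AMP and 6 to 8 for ATP. A CF group left with 1 library was assumed to vary like the other groups. In single cells, thinning to 1000 UMIs gave a log2 ratio of -1.17 for macrophage Vegfa and -0.00048 for fibroblast Vegfd. Without cluster 11 the Vegfa ratio was -0.055, and without cluster 0 those of Vegfd and Angpt1 were 0.88 and 0.55, both alternatives chosen after seeing the data; the causes were not tested. With no low-count filter 26 genes were called for ENPP1 in CFs at 24 h, 180 at 48 h and 14 in NRVMs, where the main fits called 0. Replicate numbers are shared between groups. Correlations of same-numbered deviations ran from -0.112 to 0.277 in CFs (median 0.0125) and from -0.166 to 0.124 in NRVMs (median 0.0143). With n = 2 the deviations of a CF group mirror each other, so this check cannot exclude shared handling. A fit with the replicate number as a block left all 19 counts of members called within 1.5 times and made 3 values pass: Angpt2 with AMP at 48 h (adjusted p = 0.0457), Flt4 with ATP at 48 h against 24 h (0.0227) and the Angpt2 interaction for ENPP1+ATP (0.048). Small changes of members under 4 CPM and single-cell levels under 20 UMIs were limited by depth.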
